A study of Rattus norvegicus with 145 samples.

Results

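The genes described here are the amino acid transporters of rat liver, taken as every gene of the deposited count tables whose symbol belongs to the solute carrier families Slc1, Slc3, Slc6, Slc7, Slc36, Slc38 or Slc43. The rule found 59 of the 17337 genes in the tables. These were 7 genes of Slc1, 2 of Slc3, 18 of Slc6, 16 of Slc7, 4 of Slc36, 9 of Slc38 and 3 of Slc43. The Slc7 group holds Slc7a6os, which matches by its symbol and is no carrier.

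Amino acids cross the plasma membrane largely through carrier proteins. Slc7 light chains such as Slc7a5, Slc7a6, Slc7a7 and Slc7a8 exchange large neutral or basic amino acids and reach the cell surface only when bound to the heavy chain Slc3a2 (CD98), whereas the cationic carriers such as Slc7a1 work without it. Carriers of Slc1 and Slc38 take up glutamate, glutamine and small neutral amino acids with sodium, those of Slc6 carry taurine, creatine, glycine, betaine and GABA with sodium and chloride, and Slc43 and Slc36 hold facilitators and proton-coupled carriers. In liver, Slc38a3 and Slc38a4 serve the uptake of glutamine, histidine, alanine and other gluconeogenic amino acids by hepatocytes, and the carriers of proliferating cells include Slc1a5 and the Slc3a2 complexes.

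Acetamide was given by daily gavage in water to Wistar rats, and liver RNA was sequenced from 145 rats, 5 in each of 29 groups. In experiment A, male Hsd:WI rats of 9 to 10 weeks received water alone or 30, 100, 300 or 1000 mkd (mg per kg body weight a day) for 7 days and were examined on day 8. In experiment B, male and female Crl:WI rats of 8 to 10 weeks received 0, 300, 500, 750, 1000 or 1500 mkd for 7 or 28 days and were examined on day 8 or day 29. All rats were fasted overnight before the left lobe was taken, and the controls received water alone. Each dose was compared with the vehicle rats of the same data set, so that the doses of a data set share their controls. A transporter is called up- or down-regulated at a fold change of at least 1.5 with an adjusted p of at most 0.05 (edgeR). The p were adjusted by Benjamini-Hochberg over all genes tested. The levels are in CPM, the reads of a gene scaled to the size of the library. The errors of log2 fold changes, slopes and differences are approximate standard errors. They are the absolute estimate divided by the square root of the F statistic of its test. The shares of all genes are by this rule, or by the adjusted p alone for slopes and differences between responses. Counts at an unadjusted p under 0.05, by DESeq2 or with rats left out have no share of all genes to be set against. Neither have those of the other alternative fits.

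Single rats stood apart in several groups. Replicate numbers count the rats of a group in order, and in experiment A they are not always the numbers in the titles. At 1000 mkd in experiment A, replicate 2 had the lowest sum of 10 hepatocyte markers, 88959.9 CPM, and the highest TMM factor, 1.91. At 1500 mkd on day 29, female replicate 2 had 105011 CPM of hepatocyte markers and a TMM factor of 1.45, and male replicate 3 had 1411 CPM of 19 proliferation markers. The study identified this male as an outlier in the Ki67 labeling of hepatocytes and left it out of its dose-response modeling of that labeling. The vehicle male of day 29 numbered 5 had the highest value of its group for 11 of the 35 transporters tested and the lowest for 7. The other vehicle males were the highest for 5 to 7, and replicate 2 was the lowest for 11. Hepatocyte markers were abundant in every rat. In whole liver, fewer cells of a type and less RNA per cell cannot be told apart.

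After filtering on low counts, 35 of the 59 transporters were tested in experiment A, 34 and 35 in males of experiment B on day 8 and day 29, and 36 and 35 in females. In all 5 data sets 33 were tested, and 39 in at least 1. The other 20 were tested in none. Of these, Slc6a14, Slc6a2 and Slc7a14 had a count of 0 in every rat, and the others, which include Slc7a9, the light chain of the kidney cystine carrier, and Slc38a5, had at most 0.636 CPM in any rat (Slc36a2).

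In experiment A at 1000 mkd, 13 of the 35 tested transporters changed, 9 up and 4 down. Those that rose included the CD98 heavy chain Slc3a2, 3 of its light chains (Slc7a6, Slc7a7 and Slc7a8), the branched-chain amino acid facilitator Slc43a2 and the glutamine carrier Slc1a5. Those that fell were the hepatocyte carriers Slc38a3 and Slc38a4, the GABA and taurine carrier Slc6a13 and the large neutral amino acid facilitator Slc43a1. This was 37.1% of the transporters tested, and 21.4% of all 11323 genes tested were called at this dose, 14% up and 7.45% down. The median log2 fold change of the transporters was 0.27, against 0.00 for all genes. At 30, 100 and 300 mkd, 0 transporters were called and 0 of all genes, with 4, 3 and 3 transporters at an unadjusted p under 0.05 (edgeR) and 0 calls by DESeq2.

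**Figure D1:**
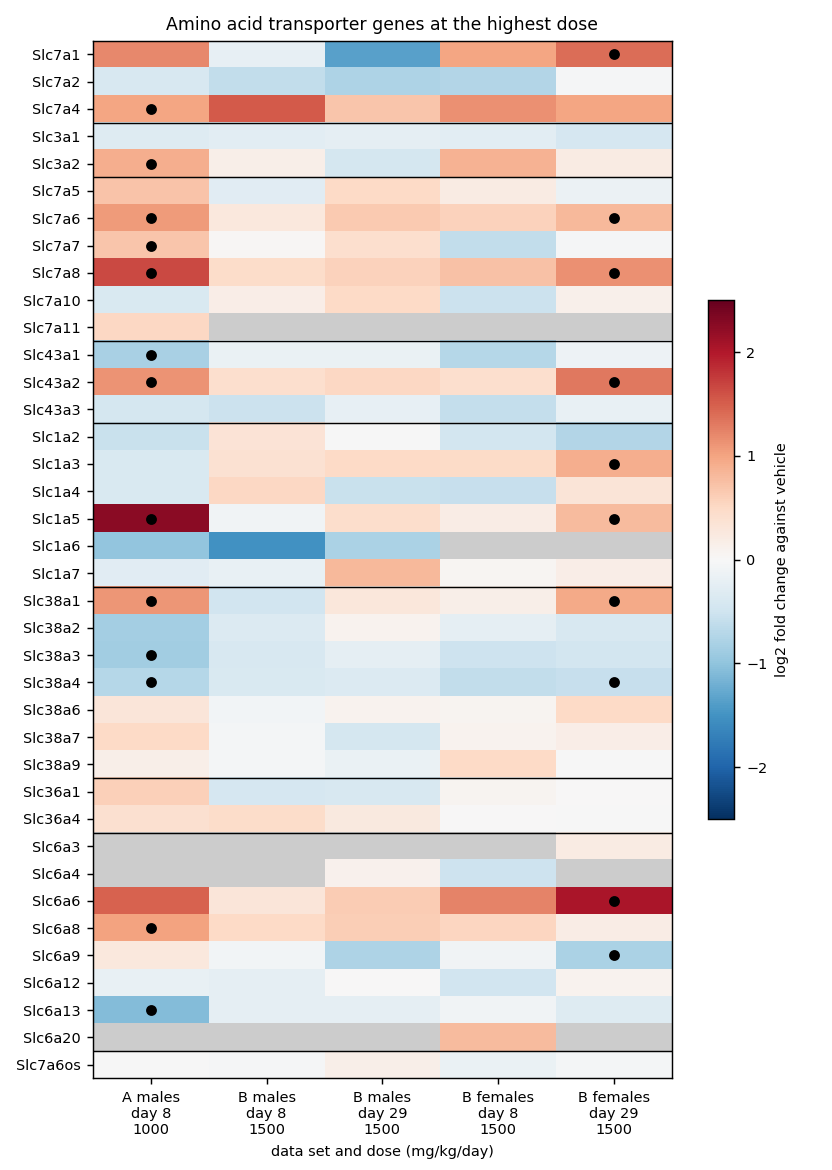
Log2 fold change at the highest dose (colour) of 38 of the 39 transporters tested in at least 1 data set (vertical, grouped by class) in the 5 data sets (horizontal); dots mark called genes, and grey cells were not tested. The dots lie in males of experiment A at 1000 mkd (13) and in females of day 29 at 1500 mkd (10), and none in the other 3 data sets.

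Among the light chains of experiment A, Slc7a8 (LAT2, an exchanger of neutral amino acids) had 3.40, 3.59, 3.48, 4.21 and 3.45 CPM in the vehicle rats and 8.56, 14.5, 8.28, 14.8 and 11.2 CPM at 1000 mkd. Every treated rat lay well above every control rat, and the log2 fold change was 1.66 ± 0.24 (adjusted p = 0.000116, edgeR). The group means of Slc7a8 at 30, 100 and 300 mkd were 2.77 ± 1.27, 4.12 ± 0.26 and 4.13 ± 0.78 CPM (SD, n = 5). The rise was thus seen at the highest dose alone.

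Slc7a6 (y+LAT2, which exchanges basic for neutral amino acids) had 1.89, 2.00, 1.51, 1.90 and 2.66 CPM in the vehicle rats and 2.66, 6.03, 3.28, 4.86 and 3.91 CPM at 1000 mkd. The highest control and the lowest treated rat were nearly level, and the other treated rats were higher (log2 fold change 1.06 ± 0.23, adjusted p = 0.00177, edgeR). Slc7a7 (y+LAT1, the same exchange) had 7.54, 6.90, 5.26, 5.96 and 5.77 CPM in the controls and 8.96, 11.1, 7.69, 10.8 and 12.2 CPM at 1000 mkd. The groups did not overlap, and the change was smaller (0.69 ± 0.14, adjusted p = 0.000912). Slc7a5 (LAT1), the light chain most associated with growing cells, was not called, with means of 4.15 and 6.78 CPM (0.72 ± 0.49, adjusted p = 0.274).

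Their heavy chain Slc3a2 had 99.0, 95.7, 72.0, 109 and 140 CPM in the vehicle rats and 136, 364, 128, 166 and 171 CPM at 1000 mkd. The groups overlapped, and treated replicate 2 was far above the rest. The log2 fold change was 0.90 ± 0.25 (adjusted p = 0.00851, edgeR), and without that rat it was 0.55 with an adjusted p of 0.0545, so that the call was lost.

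Slc43a2 (LAT4, a facilitator of branched-chain amino acids, phenylalanine and methionine) had 7.96, 9.40, 9.41, 8.88 and 13.2 CPM in the vehicle rats and 19.1, 22.2, 16.7, 22.0 and 25.9 CPM at 1000 mkd. The groups did not overlap (log2 fold change 1.12 ± 0.16, adjusted p = 0.000119, edgeR). Its relative Slc43a1 (LAT3) moved the other way, with 50.3, 40.1, 32.5, 58.1 and 18.7 CPM in the controls and 34.8, 12.5, 29.7, 16.1 and 20.3 CPM at 1000 mkd. Here the groups overlapped, since 2 control rats lay within the range of the treated rats (−0.82 ± 0.26, adjusted p = 0.0202). The call of Slc43a1 was lost without vehicle replicate 1 (adjusted p = 0.0509) or 4 (0.0695) and without treated replicate 2 (0.0714) or 4 (0.0665).

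Slc1a5 (ASCT2, an exchanger of glutamine and other neutral amino acids) had 1.02, 0.799, 0.416, 0.813 and 0.689 CPM in the vehicle rats and 1.73, 7.19, 1.92, 4.35 and 2.59 CPM at 1000 mkd. It had the highest log2 fold change of the called transporters, 2.25 ± 0.34 (adjusted p = 0.000145, edgeR), and the treated rats, all above the controls, differed widely among themselves. Slc38a1 (SNAT1, a system A carrier of glutamine and alanine) had 0.316, 0.218, 0.302, 0.241 and 0.328 CPM against 0.198, 0.967, 0.414, 0.694 and 0.733 CPM. The lowest treated rat was below every control rat, and Slc38a1 had 1 to 55 reads per rat over the series. The change was 1.11 ± 0.37 (adjusted p = 0.0279), lost without vehicle replicate 2 (adjusted p = 0.066) or 4 (0.0586) and without treated replicate 2 (0.114), 4 (0.057) or 5 (0.0574).

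Of the Slc6 carriers, Slc6a8 (creatine) rose from 5.47, 4.17, 5.48, 6.23 and 4.76 CPM in the vehicle rats to 7.62, 17.3, 6.59, 11.5 and 9.14 CPM (log2 fold change 1.00 ± 0.22, adjusted p = 0.00214, edgeR). The groups were close but did not overlap. Slc6a6, the taurine carrier, had 1.96, 1.74, 1.89, 12.7 and 6.23 CPM in the controls and 3.85, 19.9, 5.97, 24.3 and 14.4 CPM at 1000 mkd. Both groups were widely spread, and the change of 1.47 ± 0.60 was not called (adjusted p = 0.0646). Slc7a4, a relative of the cationic carriers, was low (0 to 65 reads per rat over the series), at 0.218 to 0.737 CPM in the controls and 0.739 to 1.28 CPM at 1000 mkd. Its change of 1.00 ± 0.35 (adjusted p = 0.033) was lost without vehicle replicate 2 (0.0939) or 4 (0.0856) or without treated replicate 1 (0.0615), 2 (0.0526) or 4 (0.0727).

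**Figure D2:**
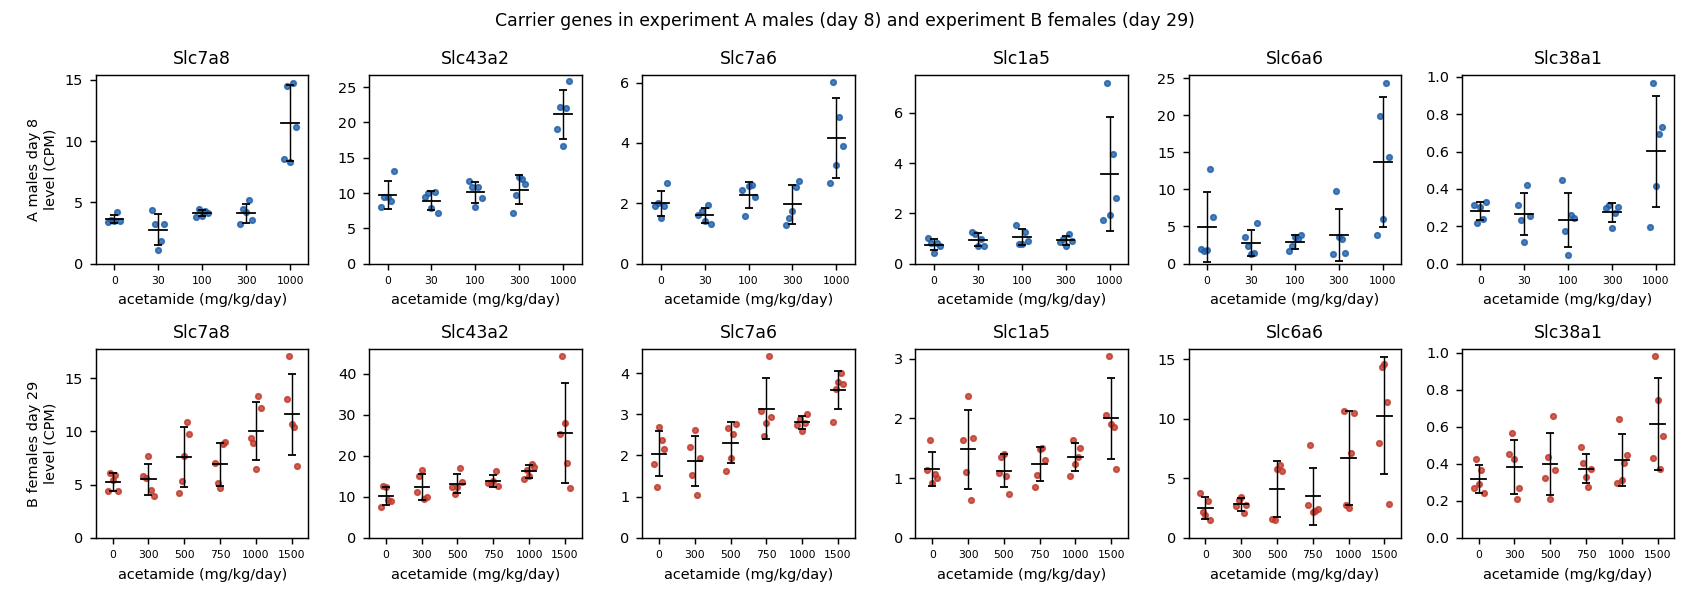
CPM (vertical) by dose in mkd (horizontal) of Slc7a8, Slc43a2, Slc7a6, Slc1a5, Slc6a6 and Slc38a1 in males of experiment A on day 8 (top row) and in females of experiment B on day 29 (bottom row); points are rats, short lines are group means and bars are SD (n = 5), and the dose groups are evenly spaced. In experiment A the mean of each gene is highest at 1000 mkd, and the means of Slc6a6 at 30, 100 and 300 mkd (2.79, 2.95 and 3.86 CPM) are below its control mean of 4.91 CPM. In females the mean of Slc43a2 goes from 10.2 CPM in the controls to 16.2 CPM at 1000 mkd and 25.5 CPM at 1500 mkd.

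Among the transporters that fell, Slc6a13 (GAT2, a carrier of GABA and taurine) had 322, 336, 329, 311 and 289 CPM in the vehicle rats and 185, 59.3, 219, 163 and 121 CPM at 1000 mkd. All treated rats were far below the controls (log2 fold change −1.09 ± 0.21, adjusted p = 0.000843, edgeR), while the means at 30, 100 and 300 mkd were 355, 331 and 323 CPM. Slc38a3 (SNAT3, a system N carrier of glutamine and histidine) had 1654, 1875, 1731, 1361 and 1252 CPM against 1263, 598, 1041, 519 and 912 CPM. Only the highest treated and the lowest control rat overlapped (−0.86 ± 0.24, adjusted p = 0.0093).

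Slc38a4 (SNAT4, a system A carrier of alanine and other small neutral amino acids) had 719, 1237, 743, 854 and 753 CPM in the vehicle rats and 749, 267, 691, 357 and 569 CPM at 1000 mkd. A single treated rat lay within the range of the controls. The change of −0.71 ± 0.24 (adjusted p = 0.0266, edgeR) was lost without vehicle replicate 2 (−0.55, adjusted p = 0.097) and without treated replicate 2 (−0.54, 0.0775) or 4 (−0.59, 0.0852).

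The calls of Slc1a5, Slc38a3, Slc43a2, Slc6a13, Slc6a8, Slc7a6, Slc7a7 and Slc7a8 were kept whichever single control or 1000 mkd rat was left out. Without treated replicate 2, which was the most shifted rat for 8 of the 13 called transporters, 8 were called (6 up, 2 down). Over all such removals between 8 and 17 were called, without a share of all genes from the same fits. In the same livers, 5 of 10 hepatocyte markers were down-regulated, with a sum of 273618 to 362654 CPM in the controls and 88959.9 to 268128 CPM at 1000 mkd. Up-regulated were 18 of 19 proliferation markers (49.6 to 129.9 CPM against 173.6 to 362 CPM), 8 of 12 macrophage markers (583.6 to 1671.56 CPM against 1415.79 to 2489 CPM) and 8 of the 9 T and NK cell markers tested, whose list summed to 24.8 to 30.7 CPM against 42.7 to 78.7 CPM. No marker of these 4 lists was at 0 in all rats of either group, and their part in the changes of the transporters was not tested.

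In females on day 29 at 1500 mkd, 10 of the 35 tested transporters changed, 8 up and 2 down. The light chains Slc7a6 and Slc7a8, the facilitator Slc43a2, the taurine carrier Slc6a6, the arginine carrier Slc7a1, the glutamate carrier Slc1a3 and the glutamine carriers Slc1a5 and Slc38a1 rose, and the glycine carrier Slc6a9 and Slc38a4 fell. This was 28.6% of the transporters tested, and 13.1% of all genes were called, 9.55% up and 3.54% down. The share of the transporters includes Slc7a1, which was chosen for its change on day 29, so its place there is a description. The median log2 fold change was 0.08 for the transporters and −0.00 for all genes. At 300, 500, 750 and 1000 mkd 0 transporters were called, with 0, 5, 6 and 6 at an unadjusted p under 0.05 (edgeR). Of all genes 0%, 0.0349%, 0.183% and 1.59% were called at these doses, and DESeq2 called 0 transporters over the first 3 of them and 2 at 1000 mkd.

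Slc6a6 had 3.77, 2.16, 1.93, 3.06 and 1.52 CPM in the vehicle females and 8.01, 14.3, 14.6, 11.5 and 2.85 CPM at 1500 mkd. In 4 of 5 treated rats it was above every control, and treated replicate 5 lay among the controls (log2 fold change 2.05 ± 0.48, adjusted p = 0.00413, edgeR). Slc43a2 had 7.62, 12.6, 12.5, 9.26 and 9.08 CPM against 25.2, 44.2, 27.9, 18.2 and 12.1 CPM. Again replicate 5 was the lowest treated rat and the only one within the range of the controls (1.32 ± 0.23, adjusted p = 0.000296).

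Slc7a8 had 4.36, 6.13, 5.45, 5.87 and 4.44 CPM in the vehicle females and 13.0, 17.1, 10.7, 10.4 and 6.77 CPM at 1500 mkd, with no overlap (1.14 ± 0.26, adjusted p = 0.00328, edgeR). Slc7a6 had 1.79, 1.25, 2.68, 2.36 and 2.16 CPM against 2.80, 3.61, 3.77, 4.01 and 3.74 CPM, also with no overlap (0.81 ± 0.21, adjusted p = 0.00901). The heavy chain Slc3a2 differed little between these groups, with means of 121 and 138 CPM (0.20 ± 0.17, adjusted p = 0.447).

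The remaining risers had calls that depended on single rats. Slc1a5 had 1.13, 1.64, 0.922, 1.06 and 1.000 CPM in the controls and 2.05, 3.04, 1.90, 1.85 and 1.15 CPM at 1500 mkd, 4 of 5 treated rats being above the controls (0.80 ± 0.27, adjusted p = 0.0388, edgeR). Slc38a1 had 0.240 to 0.426 CPM in the controls and 0.371 to 0.983 CPM at 1500 mkd (0.95 ± 0.32, adjusted p = 0.0341). Slc1a3 (EAAT1, a glutamate carrier) had 3.34, 2.85, 2.43, 1.67 and 1.28 CPM against 2.89, 7.13, 4.24, 3.27 and 4.30 CPM, with overlapping groups (0.91 ± 0.30, adjusted p = 0.0332). Without treated replicate 2 the adjusted p of Slc1a5, Slc38a1 and Slc1a3 were 0.173, 0.161 and 0.166, and without treated replicate 3 they were 0.0595, 0.0792 and 0.0552. The 3 calls were also lost without vehicle replicate 4 (0.0856, 0.0541 and 0.0926) or 5 (0.0856, 0.0842 and 0.101). Slc1a5 and Slc38a1 lost theirs without vehicle replicate 1 (0.0675 and 0.0717) or 3 (0.0709 and 0.0533) as well, and Slc1a5 without treated replicate 1 (0.0628).

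Slc6a9 (GlyT1, a glycine carrier) had 111, 174, 131, 129 and 98.8 CPM in the vehicle females and 84.3, 51.3, 66.1, 104 and 66.0 CPM at 1500 mkd. The groups overlapped by a single treated rat (−0.79 ± 0.26, adjusted p = 0.0323, edgeR), and the call was lost without vehicle replicate 2 (0.0814) or treated replicate 2 (0.114) or 3 (0.0735). In the annotation Slc6a9 overlaps Ccdc24, and Slc38a4, Slc6a6, Slc7a4 and Slc7a8 overlap uncharacterised genes, and whether reads were counted by strand is not given in the sources used here. Slc38a4 had 681, 632, 459, 1395 and 986 CPM against 663, 437, 721, 456 and 490 CPM. The groups overlapped for 3 of 5 treated rats, and the call (−0.59 ± 0.20, adjusted p = 0.0415) was lost without vehicle replicate 4 (−0.35, adjusted p = 0.2) or 5 (−0.50, 0.124) and without treated replicate 2 (−0.50, 0.14), 4 (−0.52, 0.0869) or 5 (−0.55, 0.0663). Slc38a3 was lower in all 5 treated females than in every control but did not reach the fold threshold (−0.46 ± 0.15, adjusted p = 0.0351).

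The calls of Slc43a2, Slc6a6, Slc7a6 and Slc7a8 were kept whichever control or 1500 mkd female was left out. Between 4 and 12 transporters were called over these removals, without a share of all genes from the same fits. The count was 6 without vehicle replicate 4 or 5, 4 without treated replicate 2 and 5 without treated replicate 3. With only the vehicle and 1500 mkd rats in the fit, 4 were called. Treated replicate 2 was the most shifted rat for 7 of the 10. Replicate 5 was the least shifted for 5 of them and had 82.9 CPM of proliferation markers, while the other 4 rats had 219 to 280 CPM and the controls 49.4 to 67.2 CPM. Hepatocyte markers summed to 212825 to 400965 CPM in the controls and 105011 to 213641 CPM at 1500 mkd, and macrophage markers to 1038 to 1294 CPM and 1242 to 2306 CPM. The part of these cell markers in the changes was not tested.

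**Figure D3:**
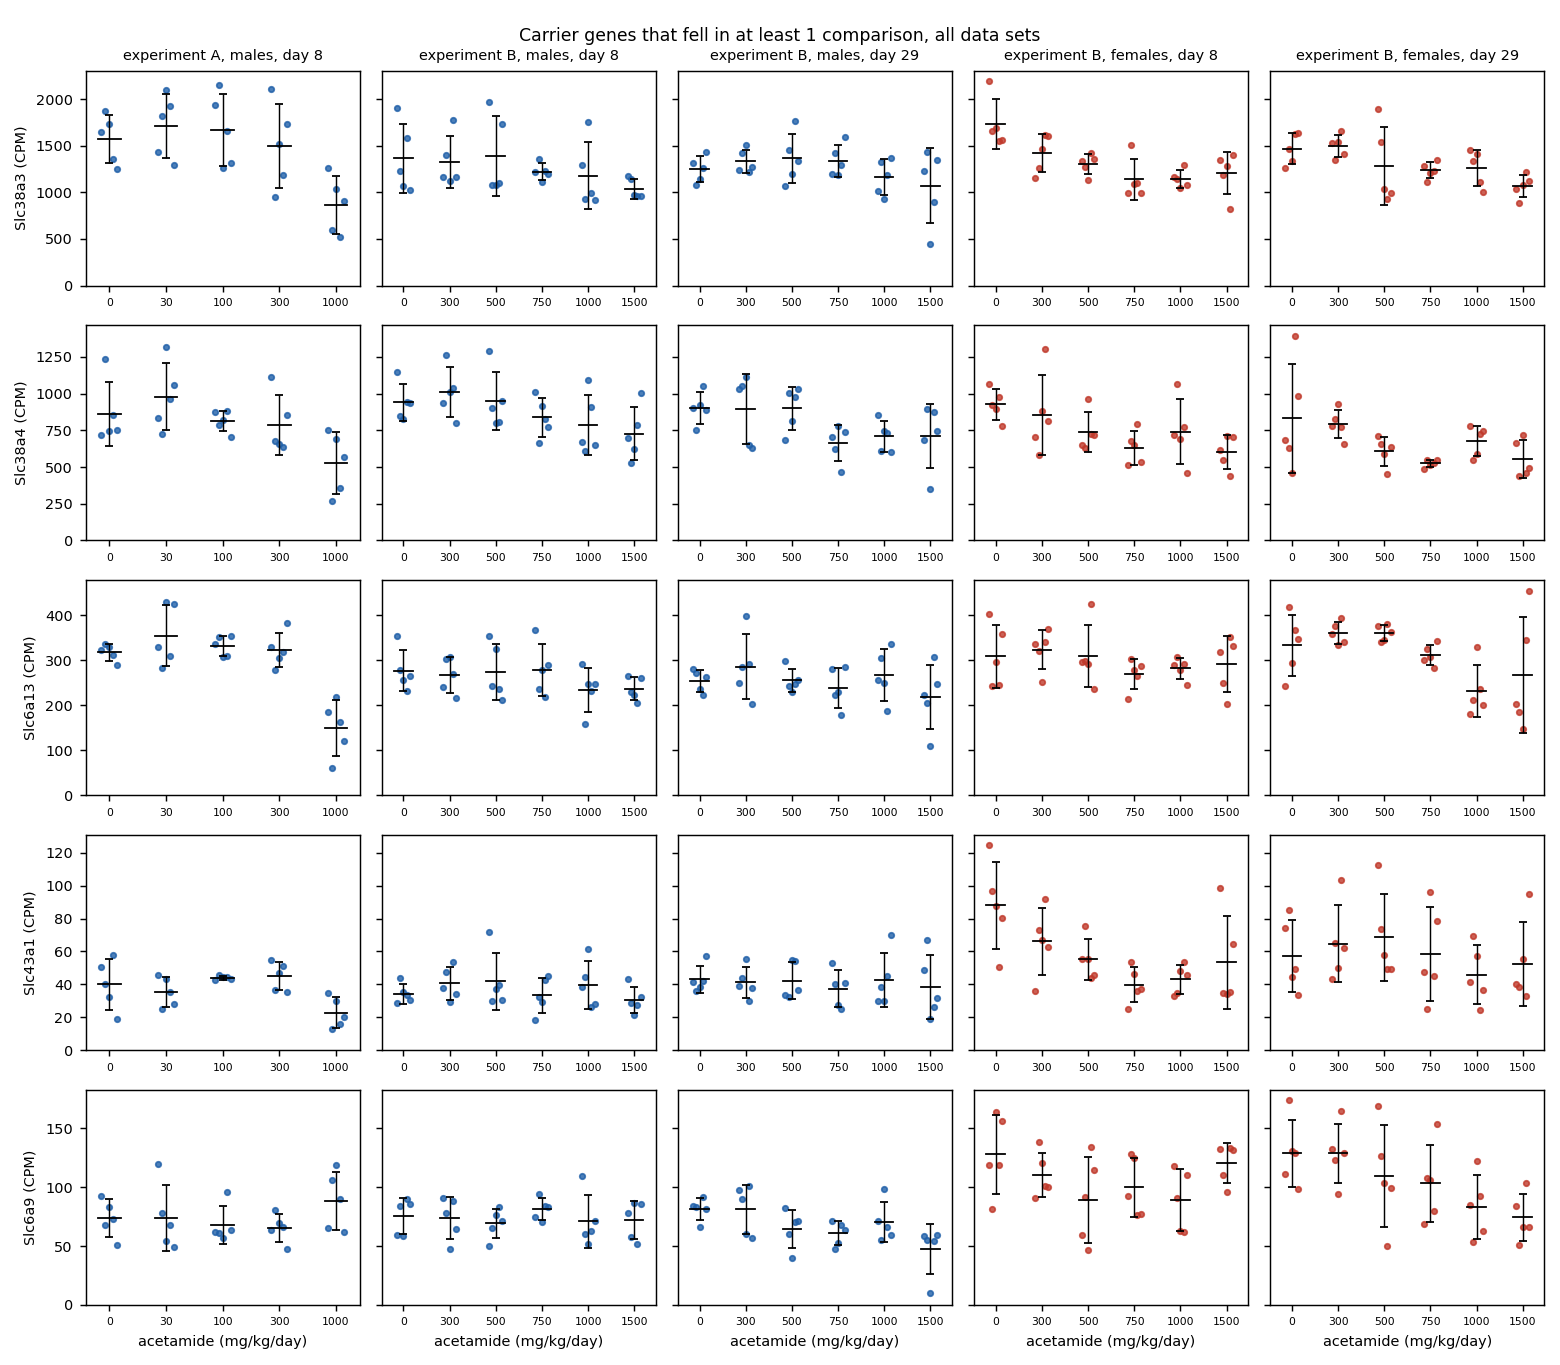
CPM of each rat (vertical, with mean ± SD, n = 5) by dose group in mkd (horizontal) of the called fallers Slc38a3, Slc38a4, Slc6a13, Slc43a1 and Slc6a9 in the 5 data sets, males in blue and females in red. The fall of Slc6a13 in experiment A, from a mean of 317 CPM in the controls to 149 CPM at 1000 mkd, stands beside 333 and 267 CPM in females of day 29 at 0 and 1500 mkd.

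The comparisons in males of experiment A and in females of day 29 share no rats. Of the calls, 6 were common to both in the same direction, which is 46.2% of the 13 in males and 60% of the 10 in females. Of all genes, 21.4% and 13.1% were called in these comparisons, and how many of them were common to both is not given here. Nothing is therefore read from the size of the overlap. The common calls are named as a description. They were Slc1a5, Slc38a1, Slc43a2, Slc7a6 and Slc7a8, which rose, and Slc38a4, which fell. The other 7 calls of experiment A were not shared. In females of day 29 the log2 fold changes of Slc6a13, Slc6a8, Slc7a7, Slc3a2 and Slc43a1 were −0.32 ± 0.21, 0.19 ± 0.17, −0.03 ± 0.32, 0.20 ± 0.17 and −0.13 ± 0.35. That of Slc7a4 was 0.98 ± 0.47 (adjusted p = 0.143, edgeR), close to its 1.00 in males, and that of Slc38a3, −0.46 ± 0.15, was under the fold threshold. The difference between these data sets in these genes was not tested.

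Slc7a6, Slc7a8 and Slc43a2 kept their calls in both data sets whichever single rat was left out. The promoters of Slc7a8 and Slc43a2 are printed here, and that of Slc7a6 is not. Beside them stand those of Slc38a1 and Slc7a1, which hold an amino acid response element. The printed promoters are the 250 bases before the RefSeq start site (assembly GRCr8, while the counts were made on rn6). They are written from 5′ to 3′ on the strand of the gene. Capitals mark matches to TGATGNAA (the amino acid response element bound by ATF4 and C/EBP factors) or TGACNNNGC (the antioxidant response element bound by NRF2), searched on both strands, and neither Slc7a8 nor Slc43a2 holds one in this window.
Slc7a1: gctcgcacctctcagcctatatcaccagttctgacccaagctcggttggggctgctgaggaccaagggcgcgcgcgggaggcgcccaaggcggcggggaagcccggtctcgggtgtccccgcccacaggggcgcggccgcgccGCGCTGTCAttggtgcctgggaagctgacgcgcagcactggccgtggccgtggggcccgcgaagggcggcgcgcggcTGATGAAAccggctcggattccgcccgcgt
Slc38a1: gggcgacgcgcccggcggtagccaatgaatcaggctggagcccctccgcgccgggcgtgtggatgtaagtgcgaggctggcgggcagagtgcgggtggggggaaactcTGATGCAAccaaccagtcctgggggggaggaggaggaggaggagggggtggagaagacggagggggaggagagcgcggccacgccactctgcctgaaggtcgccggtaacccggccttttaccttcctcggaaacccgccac
Slc7a8: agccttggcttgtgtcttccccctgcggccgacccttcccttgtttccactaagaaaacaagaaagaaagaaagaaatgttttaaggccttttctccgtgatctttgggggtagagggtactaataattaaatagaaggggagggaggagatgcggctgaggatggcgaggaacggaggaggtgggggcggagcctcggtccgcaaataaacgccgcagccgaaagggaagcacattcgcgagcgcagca
Slc43a2: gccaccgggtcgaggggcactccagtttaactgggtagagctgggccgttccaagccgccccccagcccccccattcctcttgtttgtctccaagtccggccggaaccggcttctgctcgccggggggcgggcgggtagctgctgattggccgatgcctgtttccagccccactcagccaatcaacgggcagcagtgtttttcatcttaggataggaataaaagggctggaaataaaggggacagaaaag

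The 4 windows lie at chr12:11664238-11664487 (plus strand), chr7:129681402-129681651 (minus), chr15:32212716-32212965 (minus) and chr10:60874588-60874837 (plus) for Slc7a1, Slc38a1, Slc7a8 and Slc43a2. The element of Slc7a1, TGATGAAA, starts 30 bases before the start site, and that of Slc38a1, TGATGCAA, 142 bases before it. Slc7a1 also holds GCGCTGTCA, the antioxidant element on the other strand, at 107 bases. Of the 59 transporters, 45 had an entry in the table. TGATGNAA occurred in 3 of them (Slc1a4, Slc38a1 and Slc7a1) and in 3.4% of all 33469 promoters, and TGACNNNGC in 9 and in 10.1%. The E-box CACGTG occurred in 7 and in 5.59%, and TATAAA in 5 and in 12.9%. A match of letters is a description and no evidence of binding.

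Over all doses of a data set, a linear slope on dose was tested as well. In experiment A 21 of 35 transporters had a slope with an adjusted p of at most 0.05 (edgeR), 14 up and 7 down, where 45.9% of all genes did, 23.5% up and 22.4% down. The steepest called slopes were those of Slc1a5 (2.08 ± 0.25 on the log2 scale per g/kg/day), Slc6a6 (1.95 ± 0.45), Slc7a8 (1.79 ± 0.19), Slc7a1 (1.73 ± 0.40) and, downwards, Slc6a13 (−1.20 ± 0.20). Slc7a11 (xCT, the cystine and glutamate exchanger) was among the 14 with a rising slope, at 1.11 ± 0.45 with an adjusted p of 0.0444, on few reads. It had 0 to 0.351 CPM in the controls, means of 0.0709, 0.138 and 0.0702 CPM at 30, 100 and 300 mkd, and 0.207 to 0.340 CPM at 1000 mkd, so that the highest rat was a control. Its slope was no longer called without replicate 2, 3, 4 or 5 of every group, with the replicate block or without a filter.

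In females of day 29 a slope was found for 14 of 35 transporters, 9 up and 5 down, against 27.3% of all genes, 15.4% up and 11.9% down. The steepest were those of Slc6a6 (1.41 ± 0.26), Slc7a4 (0.96 ± 0.29), Slc7a1 (0.90 ± 0.22), Slc43a2 (0.83 ± 0.12) and Slc7a8 (0.82 ± 0.15), and the 5 that fell were Slc6a9 (−0.60 ± 0.15), Slc38a4, Slc6a13, Slc38a3 and Slc3a1, the heavy chain of Slc7a9. Slc7a1 was chosen for its change on day 29, so its slope here is a description. The level of Slc43a2 went from 10.2 ± 2.2 CPM (SD, n = 5) through 12.4, 13.2, 13.9 and 16.2 CPM to 25.5 ± 12.1 CPM at 1500 mkd. That of Slc7a8 went from 5.25 ± 0.81 CPM to 10.0 ± 2.8 CPM at 1000 mkd and 11.6 ± 3.8 CPM at 1500 mkd.

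In males of experiment B on day 8, 0 transporters were called at any dose, and 0% of all genes up to 1000 mkd and 0.177% at 1500 mkd. Between 1 and 3 transporters had an unadjusted p under 0.05 (edgeR) at 300 to 1000 mkd, where DESeq2 called 0. At 1500 mkd 7 transporters did, and DESeq2 called 2. The lowest adjusted p was that of Slc43a3, which carries purine bases rather than amino acids, at −0.53 ± 0.14 (adjusted p = 0.0839). Its level was 40.3 ± 4.2 CPM (SD, n = 5) in the controls, and the mean declined to 27.9 ± 5.5 CPM at 1500 mkd, where all 5 rats were below the controls. A slope was found for Slc43a3 (−0.33 ± 0.09) and the creatine carrier Slc6a8 (0.44 ± 0.12), 2 of 34 transporters, against 2.52% of all genes, 1.98% up and 0.54% down.

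In males on day 29 at 1500 mkd, 0 of 35 transporters were called, while 4.91% of all genes were. There were 8 transporters with an unadjusted p under 0.05 (edgeR), DESeq2 called 2, and edgeR called 2 without treated replicate 3 and 1 without vehicle replicate 3 or 4. The calls by DESeq2 and after these removals include Slc7a1, which was chosen for its change on day 29. The nearest to the threshold were Slc38a7, a lysosomal glutamine carrier (−0.45 ± 0.14, adjusted p = 0.0565, all 5 treated rats below the controls), and Slc6a8 (0.61 ± 0.20, adjusted p = 0.06, all 5 above). Slc6a9 had 66.3 to 92.0 CPM in the controls and 10.3 CPM in treated replicate 3, the rat with the most proliferation markers, against 54.4 to 59.8 CPM in the other 4 treated rats (−0.78 ± 0.28, adjusted p = 0.0859). At 750 mkd, where 0.78% of all genes were called, Slc38a7 had an adjusted p of 0.0475 with a fold change under the threshold. At 300, 500 and 750 mkd 2, 5 and 7 transporters had an unadjusted p under 0.05, and DESeq2 called 3 over these doses.

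The slope on dose was called for 8 of 35 transporters in males of day 29, against 24.5% of all genes, 13.9% up and 10.6% down. Slc1a3, Slc1a5, Slc43a2, Slc6a8, Slc7a6 and Slc7a8 rose, Slc7a8 by 0.59 ± 0.19 and Slc6a8 by 0.50 ± 0.12 per g/kg/day, and Slc38a7 and Slc6a9 fell by 0.26 and 0.48 on the log2 scale. The slope of Slc1a5 (2.02 ± 0.73) includes a single rat at 41.6 CPM. Slc1a5 was the only transporter called at a single dose, 1000 mkd, where 2.76% of all genes were called. It had 0.974, 0.638, 0.891, 0.706 and 1.23 CPM in the vehicle rats and 1.64, 41.6, 1.02, 0.909 and 0.949 CPM at 1000 mkd. The level of 1 rat, replicate 2, made the log2 fold change of 3.38 ± 0.78 (adjusted p = 0.0263, edgeR), which was 0.31 (adjusted p = 0.614) without it and 3.28 (adjusted p = 0.0785) without vehicle replicate 2. The number of calls at this dose was 4 without treated replicate 1, and 2 without vehicle replicate 3 or 4. These larger counts include Slc7a1, which was chosen for its change on day 29.

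In females of experiment B on day 8, the only call was Slc38a3 at 1000 mkd, where 1.37% of all genes were called. At this dose DESeq2 called 3 transporters, and edgeR with the replicate number as a block called 0. It had 2199, 1662, 1689, 1554 and 1568 CPM in the vehicle rats and 1163, 1149, 1045, 1290 and 1077 CPM at 1000 mkd. The groups did not overlap (−0.60 ± 0.14, adjusted p = 0.0299, edgeR), but the call was lost without vehicle replicate 1 (0.0919), 3 (0.0712) or 5 (0.057) or treated replicate 1 (0.0554), 3 (0.0504) or 5 (0.106). Without vehicle replicate 4, 3 transporters were called. Group means of Slc38a3 were 1425, 1307, 1140, 1145 and 1211 CPM from 300 to 1500 mkd, after 1734 CPM in the controls.

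At 1500 mkd on day 8, 0 transporters were called in females, where 0.705% of all genes were called. There were 12 transporters at an unadjusted p under 0.05 (edgeR) and 1 call by DESeq2, both without a share of all genes. The count of edgeR calls was 4 without treated replicate 1 and 2 without treated replicate 5. Slc3a2 came nearest in p, with 104 ± 7 CPM (SD, n = 5) in the controls and 189 ± 93 CPM at 1500 mkd, 4 of 5 rats being above the controls (0.86 ± 0.22, adjusted p = 0.0554). At 300, 500 and 750 mkd 0 were called, as were 0.0087%, 0.0174% and 0.0174% of all genes. At an unadjusted p under 0.05 there were 2, 6 and 9, and DESeq2 called 3 over these doses. Slopes were found for 6 of 36 transporters, against 5.44% of all genes, 3.76% up and 1.69% down. Slc3a2 (0.56 ± 0.13) and Slc6a8 (0.38 ± 0.09) rose, and Slc38a3 (−0.34 ± 0.09), Slc38a4 (−0.39 ± 0.12), Slc43a3 (−0.40 ± 0.12) and the betaine and GABA carrier Slc6a12 (−0.38 ± 0.11) fell.

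Slc7a1 (CAT-1), a widely expressed carrier of arginine and lysine, was singled out with its values known, since its fitted change had opposite signs in males and females on day 29. Its changes on day 29 are therefore a description, given with no p. In females it had 0.544, 1.47, 1.13, 0.856 and 0.520 CPM in the vehicle rats and 1.45, 3.70, 4.13, 1.89 and 0.681 CPM at 1500 mkd. Of the treated rats 3 were above every control and 1 was among the lowest of all (1.39 ± 0.38). It counts among the 10 calls above, and no longer did without treated replicate 2 (1.19) or 3 (1.10). At 300 to 1000 mkd the means lay between 0.769 and 1.01 CPM, as in the controls (0.905 CPM).

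In males on day 29 Slc7a1 had 2.23, 0.938, 0.990, 0.908 and 7.43 CPM in the vehicle rats, 0.797, 0.725, 1.25, 0.949 and 0.598 CPM at 1000 mkd and 0.621, 0.731, 1.59, 0.989 and 0.902 CPM at 1500 mkd. The treated rats and 3 of the controls had like values, and 2 control rats were higher, replicate 5 by far. The log2 fold changes were −1.52 ± 0.47 at 1000 mkd and −1.35 ± 0.46 at 1500 mkd, not called by edgeR and called by DESeq2. The gene was chosen for its changes in these same counts. Nothing is therefore read from its side of the threshold, with all rats or with a rat left out. Without vehicle replicate 5 they were −0.57 and −0.39, so that most of the difference in males rested on this rat. The thresholds were passed at both doses without vehicle replicate 3 or 4, at 1000 mkd without treated replicate 1 and at 1500 mkd without treated replicate 3. In the same rat Slc3a2 had 229.9 CPM, against 63.7 to 95.1 CPM in the other controls, and hepatocyte markers summed to 212682 CPM, against 241653 to 268121 CPM.

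The difference between the female and the male change of Slc7a1 at 1500 mkd was 2.76 ± 0.60 on the log2 scale, and 1.80 without vehicle male replicate 5. The gene was chosen for this contrast, so nothing is read from its place past the threshold, which it lost in 11 of 20 removals of a single rat. These were vehicle male replicates 1 and 5, 1500 mkd male replicates 1, 2, 4 and 5, vehicle female replicates 1, 4 and 5, and 1500 mkd female replicates 2 and 3. Of the other transporters 0 passed it (edgeR), against 0.0688% of all genes, and 5 of the 38 tested had an unadjusted p under 0.05, Slc7a1 included. Without 1500 mkd male replicate 3 or female replicate 5, 3 transporters passed it. The difference of Slc7a1 was 1.69 at 1000 mkd on day 29, and 1.17 at 1500 mkd on day 8 (adjusted p = 0.995, edgeR).

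In the other data sets Slc7a1 was not called at any dose. In experiment A it had 2.53, 0.907, 0.605, 1.20 and 1.25 CPM in the vehicle rats and 1.02, 7.70, 1.21, 3.04 and 1.78 CPM at 1000 mkd. The groups overlapped (1.19 ± 0.48, adjusted p = 0.0623, edgeR), and the change passed both thresholds without vehicle replicate 1 (adjusted p = 0.0254) or treated replicate 1 (0.0259) or 3 (0.0299). In males on day 8 it had 0.633, 0.857, 1.34, 1.91 and 3.21 CPM in the controls and 0.946, 1.19, 2.51, 1.04 and 1.15 CPM at 1500 mkd (−0.20), with widely overlapping groups, and in females on day 8 the change at 1500 mkd was 0.98 (adjusted p = 0.247). Across the 29 groups the means ran from 0.673 CPM (30 mkd, experiment A) to 2.95 CPM (1000 mkd, experiment A). The 4 highest were those of 1000 mkd in experiment A, 750 mkd in females on day 8 (2.52 CPM), the day 29 vehicle males (2.50 CPM) and 1500 mkd in females on day 29 (2.37 CPM), and their rats overlap. These are small numbers of reads, 3 to 438 per rat.

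**Figure D4:**
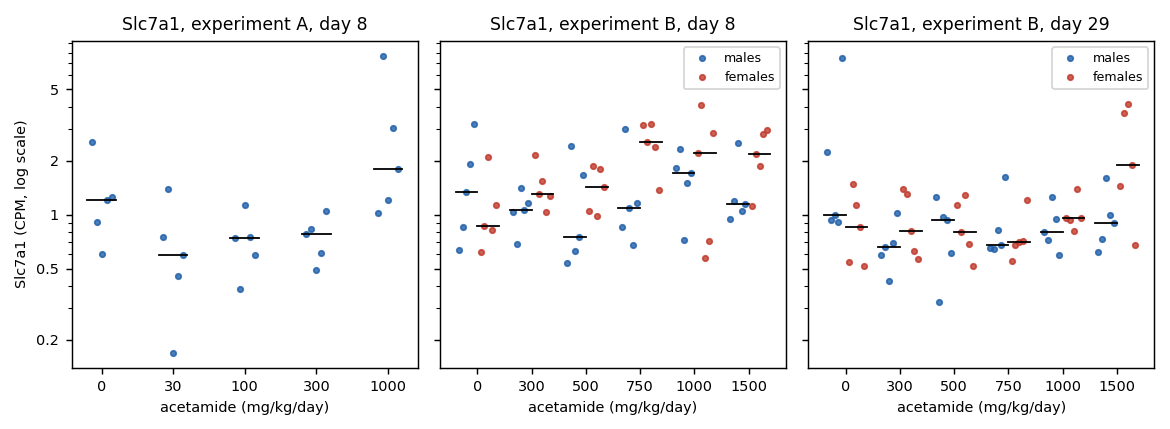
CPM of Slc7a1 in every rat (vertical, log axis) by dose in mkd (horizontal) in experiment A on day 8 and in experiment B on day 8 and day 29, males and females apart; points are rats and short lines are group medians. On day 29 the highest point of the male controls is the rat at 7.43 CPM, and in females the upper points at 1500 mkd are 3.70 and 4.13 CPM.

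Of the other differences between responses, 0 transporters differed between the sexes on day 8 at 1000 or 1500 mkd (0 of 39 tested and 0% of all genes, with 4 and 3 at an unadjusted p under 0.05 in edgeR) or on day 29 at 1000 mkd (0 of 38 and 0% of all genes, 3 at an unadjusted p under 0.05), and DESeq2 called 0 in each. Between day 29 and day 8 at 1500 mkd, 0 of 36 differed in males (0% of all genes, 2 at an unadjusted p under 0.05) and 0 of 37 in females (0.00858% of all genes, 4 at an unadjusted p under 0.05). The lowest p of these in females was that of Slc43a2, whose change on day 29 exceeded that on day 8 by 0.91 ± 0.33 (adjusted p = 0.564).

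Males received 1000 mkd for 7 days in both experiments, and the change in experiment A exceeded that in experiment B for Slc1a5 (difference 2.22 ± 0.43, adjusted p = 0.00323, edgeR), Slc7a8 (1.26 ± 0.37, 0.0308), Slc7a6 (0.97 ± 0.30, 0.0398), Slc43a2 (0.91 ± 0.27, 0.0316) and Slc7a7 (0.86 ± 0.20, 0.0094). Slc6a13 differed in the other direction (−0.86 ± 0.27, 0.0426). These were 6 of 36 transporters tested, 14 had an unadjusted p under 0.05, and 7.48% of all genes were called, 5.05% up and 2.43% down. Experiment, substrain and supplier of the rats cannot be told apart. With 1 replicate number left out of all groups 6, 2, 3, 0 and 1 were called, for replicates 1 to 5.

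In vehicle rats the levels of several transporters differed between the sexes. In these fits the levels are scaled over both sexes and differ slightly from those above. A gene can pass the filter on low counts in 1 sex alone because the sexes differ, so the counts are over the 33 transporters that passed it in each sex. On day 29, 5 of these were called, 4 higher in females and 1 lower, against 10.9% of all genes that passed in each sex (5.8% higher and 5.14% lower), with 7 at an unadjusted p under 0.05 (edgeR). The 1 lower was Slc7a1, which was chosen for changes measured against these rats. On day 8, 6 were called, 5 higher and 1 lower, against 7.83% of all such genes (3.88% higher and 3.94% lower), with 9 at an unadjusted p under 0.05. Without replicate 5 of each group, 3 were called on day 8. Without this restriction 8.37% of all genes were called on day 8 and 11.6% on day 29. Of the transporters in these fits outside the 33, 1 of 6 was called on day 8 and 2 of 5 on day 29.

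Slc7a5 (LAT1) had 4.43, 5.56, 2.09, 2.24 and 4.53 CPM in vehicle males of day 29 and 17.5, 19.4, 15.9, 16.5 and 17.5 CPM in females. The sexes did not overlap on day 29, with a log2 difference of 2.21 ± 0.44 (adjusted p = 0.0002, edgeR), and it was 1.51 ± 0.38 (adjusted p = 0.00443) on day 8. Slc7a7 had 3.26 to 7.13 CPM in males and 8.31 to 22.7 CPM in females on day 29 (1.58 ± 0.31, adjusted p = 0.00015), and 4.80 to 7.76 CPM and 9.46 to 27.6 CPM on day 8 (1.23 ± 0.26, adjusted p = 0.000563). Females were higher in both, with no overlap.

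The creatine carrier Slc6a8 had 3.37 to 4.68 CPM in vehicle males and 5.54 to 10.9 CPM in females on day 29 (1.11 ± 0.19, adjusted p = 1.28e-05, edgeR), and the difference on day 8 was 0.92 ± 0.18 (adjusted p = 0.000157). Over all doses of day 8, 30 rats of each sex, Slc6a8 ranged from 2.11 to 7.23 CPM in males and from 6.31 to 15.5 CPM in females. Slc1a2 (GLT-1), the glutamate carrier of perivenous hepatocytes, had 4.38 to 10.1 CPM in males and 17.6 to 35.6 CPM in females on day 29 (1.71 ± 0.30, adjusted p = 2.16e-05), and was not called on day 8, where the males ranged from 5.70 to 17.8 CPM and the females from 12.1 to 18.1 CPM.

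Slc1a6 (EAAT4, a glutamate carrier) was near the floor in females. It had 0.843 to 1.66 CPM in vehicle males and 0 to 0.0898 CPM in females on day 8, and 0.729 to 1.38 CPM and 0 to 0.0806 CPM on day 29. It passed the filter through the males alone, so no test of it is given. Over all 30 rats of each sex on day 8, Slc1a6 was at 0.209 to 2.05 CPM in males and 0 to 0.190 CPM in females.

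On day 8 Slc43a1 (1.19 ± 0.28, adjusted p = 0.00179, edgeR) and Slc36a4 (0.90 ± 0.23, adjusted p = 0.00477) were also higher in vehicle females. Slc38a9, a lysosomal carrier that reports arginine to mTORC1, was lower (−0.67 ± 0.19, adjusted p = 0.0137). On day 29 the log2 difference of Slc7a1, females against males, was −1.56 ± 0.43, and −0.59 without vehicle male replicate 5. These rats are the controls of the changes for which Slc7a1 was chosen, so its difference is a description, given with no p.

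**Figure D5:**
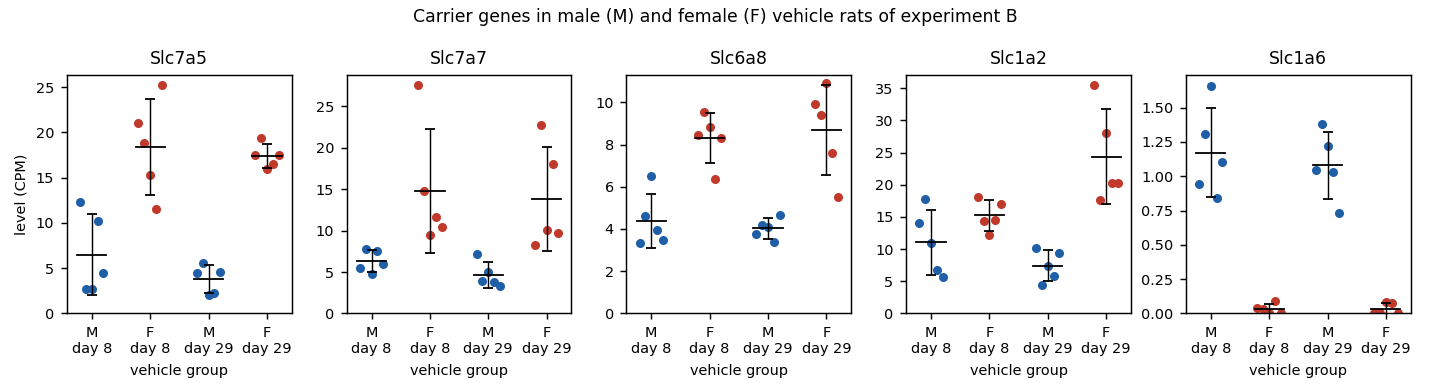
CPM (vertical) of Slc7a5, Slc7a7, Slc6a8, Slc1a2 and Slc1a6 in vehicle males and females on day 8 and day 29 (horizontal); points are rats, with the mean and SD (n = 5). Slc7a5 and Slc7a7 are higher in females on both days, and Slc1a6 is at 0 to 0.0898 CPM in all vehicle females.

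Genes beside the 7 families that bear on amino acids were taken from 3 lists, whose counts stand beside 21.4% of all genes called at 1000 mkd in experiment A and 13.1% in females of day 29 at 1500 mkd. Of 12 other carriers of amino acids and peptides tested, Slc15a3, a lysosomal carrier of peptides and histidine, was up-regulated at 1000 mkd in experiment A (1.75 ± 0.26, adjusted p = 0.000125, edgeR) and in females of day 29 at 1500 mkd (1.06, adjusted p = 0.00567), the only one of its list. That is 1 of 12 in each, under the share of all genes. Of 21 partners and sensors of amino acid transport, Rragd, a small GTPase that recruits mTORC1 to lysosomes, and the sestrin Sesn3 rose (1.25 and 0.84) and the lysosomal anchor Lamtor2 fell (−0.66) in experiment A, and in females of day 29 Sesn3 rose by 0.72. These 3 of 21 and 1 of 21 were again under the shares of all genes.

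Of 27 genes of the amino acid response that were tested in experiment A, 7 rose and 2 fell at 1000 mkd, where 14% of all genes rose and 7.45% fell. Those that rose included Gdf15, a stress hormone (1.78), the transcription factors Ddit3 (1.62) and Atf3 (1.26), and Trib3, an inhibitor of ATF4 signalling (0.81). Those that fell were the transcription factor Atf5 (−0.80) and Cars, the cysteinyl-tRNA synthetase (−0.97), and the median of the list was −0.12, against 0.00 for all genes. In females of day 29 at 1500 mkd Phgdh, the first enzyme of serine synthesis (1.52), Mthfd2, a mitochondrial folate enzyme (1.60), and the lipoprotein receptor Vldlr (0.99) rose, 3 of 27 against 9.55% of all genes. On day 8 at 1500 mkd only Phgdh did (2.98, adjusted p = 0.0435, edgeR), against 0.705% of all genes called. In males of experiment B at 1500 mkd the median of the list was −0.09 on day 8 and −0.21 on day 29, against −0.00 and 0.07 for all genes.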

How the data were processed

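Liver RNA of 145 rats was sequenced from single-end stranded mRNA libraries. The authors trimmed the reads with Trimmomatic (7 leading and 3 trailing bases, reads under 50 bases dropped), aligned them to rn6 with Bowtie2, counted them on genes with HTSeq and deposited raw read counts without normalization; versions and strand setting are not given in the sources used here. HTSeq's summary lines, 35.5 to 67.1% of a library's counts where present, were left out. Reads on genes numbered 15449716 to 39986531 per rat (median 28262376), and depth limits transporters with few reads. The per-sample columns not used number 0.

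From these counts, edgeR 4.0.16 (R 4.3.3, limma 3.58.1) computed TMM-scaled CPM, its default filter on low counts and quasi-likelihood F-tests, with all groups of a data set in 1 fit. The study's thresholds (fold change 1.5, adjusted p 0.05) were used. Slopes took dose in g/kg/day, and differences between sexes, days and experiments were interaction terms in joint fits. The tests were checked on simulated counts. For the 5 vehicle males of day 29 the experiment label names A, and they were placed in B by title, strain, age, duration and the design of the study.

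The transporters and the lists were chosen with earlier results of these data known. Values by group are given for every transporter called at a dose and for Slc7a1. The values of 1 transporter are not reported here; it is counted in the totals. Alternatives were DESeq2 1.42.0, its size factors, no filter, 10 counts in every rat, only the vehicle and the tested dose, the replicate number as a block, and leaving out each rat or replicate number. Leaving out single rats at 1000 mkd (males of day 29, females of day 8) and single vehicle rats of day 29 was chosen after seeing the data. Promoters came from RefSeq (GRCr8), and 58 of 59 symbols are in the name table.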

Additional observations from a re-analysis of the deposited data

Results flagged for a closer look

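Of 204 groups of 5 rats checked among the named transporters, 19 had a rat far from the rest, with a gap to the nearest rat of more than 0.71 of the range of the group. For independent, normally distributed values chance gives about 5% of groups. The CPM were not transformed and the same rats recur across genes, so no excess is read from the 19.

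In the vehicle males of day 29, replicate 5 was the highest for Slc7a1 (7.43 CPM, next 2.23, gap 0.798) and Slc3a2 (229.9 CPM, next 95.1, gap 0.811), replicate 3 for Slc6a6 (8.18 CPM, next 2.48, gap 0.970), and replicate 2 was the lowest for Slc7a4 (0.188 CPM, next 0.446, gap 0.758). At 1000 mkd in these males, replicate 2 was the highest for Slc1a5 (41.6 CPM, next 1.64, gap 0.982) and Slc43a2 (16.7 CPM, next 13.8, gap 0.745), and replicate 1 for Slc6a6 (7.60 CPM, next 3.12, gap 0.776). At 1500 mkd replicate 3 was the lowest for Slc6a9 (10.3 CPM, next 54.4, gap 0.892).

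In experiment A, the vehicle rats held a high value of Slc38a4 in replicate 2 (1237 CPM, next 854, gap 0.739), of Slc43a2 in replicate 5 (13.2 CPM, next 9.41, gap 0.720) and of Slc7a8 in replicate 4 (4.21 CPM, next 3.59, gap 0.765). At 1000 mkd, Slc3a2 was high in replicate 2 (364 CPM, next 171, gap 0.818). In males of day 8 in experiment B, Slc38a1 was high in vehicle replicate 5 (0.751 CPM, next 0.374, gap 0.838), Slc7a1 in 1500 mkd replicate 3 (2.51 CPM, next 1.19, gap 0.844), and Slc43a2 low in 1500 mkd replicate 1 (10.2 CPM, next 16.1, gap 0.750).

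In vehicle females of day 8, replicate 1 was the highest for Slc38a3 (2199 CPM, next 1689, gap 0.790), and replicate 4 for Slc43a2 (16.2 CPM, next 11.1, gap 0.810) and Slc6a6 (14.7 CPM, next 5.32, gap 0.780). In vehicle females of day 29, replicate 2 was the highest for Slc1a5 (1.64 CPM, next 1.13, gap 0.713).

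Responses that differed between groups by an interaction test were those of Slc1a5 (2.22), Slc7a8 (1.26), Slc7a6 (0.97), Slc43a2 (0.91), Slc7a7 (0.86) and Slc6a13 (−0.86) between experiment A and experiment B at 1000 mkd on day 8, all as log2 differences. The difference of Slc7a1 between females and males at 1500 mkd on day 29 (2.76) is a description, since the gene was chosen for it, and it was 1.80 without vehicle male replicate 5.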

How the results depend on the processing

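Over the named transporters, 1342 alternative values were computed. Of these 1064 kept their direction and their side of the threshold, 261 lost the call, 13 gained one and 4 changed sign. The changes of sign were those of Slc7a1, in values not called: −0.20 without replicate 3 for the difference between day 29 and day 8 in females at 1500 mkd (up to 0.67 without another), −0.00789 without replicate 4 in females of day 29 at 1000 mkd (up to 0.43), and 0.22 without vehicle replicate 5 or 0.28 without replicate 5 in males of day 8 at 1500 mkd (down to −0.59).

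With DESeq2 the number of transporters called was 2 in females of day 29 at 1000 mkd, 3 and 1 in females of day 8 at 1000 and 1500 mkd, 3 over their lower doses, 3, 2 and 3 in males of day 29 at 1000, 1500 and lower doses, and 2 in males of day 8 at 1500 mkd. With DESeq2's size factors it was 2 in males of day 29 at 1000 mkd and 1 at their lower doses. With only the vehicle and the tested dose it was 4 in females of day 29 at 1500 mkd, 1 over the lower doses of females of day 8, and 2 and 1 in males of day 29 at 1000 mkd and lower doses. Without a filter it was 1 at the lower doses of males of day 29. The difference between the sexes at 1500 mkd on day 29 had 0 calls without a filter, with 10 counts in every rat and with the replicate block within sex, and 5 transporters with an unadjusted p under 0.05 in the fit as reported (edgeR). The causes were not tested.

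Replicate numbers were taken only as names of the rats. Same-numbered rats of a data set had median correlations of −0.02 to 0.03 in their deviations, with single pairs from −0.54 to 0.48. In experiment A at 1000 mkd, every replicate number is below the number in the title of the rat. Same-numbered rats of experiment A can thus have different titled numbers, and so can those joined by the replicate block or left out together. Pairs by titled number were not tested there. With the replicate number as a block, 0 transporters were called in females of day 8 and in males of day 29 at 1000 mkd. With this block, 3 had a slope in females of day 8 and 1 in males of day 8.

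Leaving out rats or replicate numbers gave 7 to 17 calls in experiment A at 1000 mkd, 4 to 12 in females of day 29 at 1500 mkd, 0 to 3 and 0 to 4 in females of day 8 at 1000 and 1500 mkd, and 0 to 4, 0 to 2 and 0 to 1 in males of day 29 at 1000, 1500 and lower doses. Slopes numbered 14 to 20 in experiment A, 6 to 13 in females of day 29 (6 without replicate 2, 9 without replicate 4), 0 to 6 in females of day 8, 2 to 7 in males of day 29 (2 without replicate 1) and 0 to 2 in males of day 8. The difference between experiments had 0 to 6 calls, that between the sexes 0 to 3, and the vehicle rats 4 to 7 on day 8 (4 without replicate 5) and 6 to 8 on day 29, where 7 were called with all rats on each day. Over transporters that passed the filter in each sex, a restriction chosen after seeing the data, these were 6 and 5. Slc7a1, Slc7a11, Slc38a1 and Slc7a4 rest on few reads.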
